A study of Mus musculus with 6 samples.

Results

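The genes described here are 6 genes of the glucocorticoid response, Nr3c1, Fkbp5, Zbtb16, Sgk1, Tsc22d3 and Cdkn1a, among 8251 genes with a single symbol on the array. A probe set, the group of probes that reads 1 transcript, was assigned to a gene when the platform annotation gave it exactly 1 symbol. The 6 genes had 8 probe sets, and each gene is represented by its probe set of highest mean level. The genes were chosen by name as hormone-responsive genes, when their intensities on these same 6 arrays and the differences between genotypes and ages were already known. Their differences are therefore given as a description and support nothing further. Of the 6 genes, 5 passed the filter on low values, and Nr3c1 did not.

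Poly(A) RNA of mouse spinal cord was measured on 6 Affymetrix arrays, 1 for each of 3 genotypes at 110 and 75 days of age. G93A-SOD1 mice express human superoxide dismutase 1 with the G93A mutation of familial amyotrophic lateral sclerosis, and their strain is labelled B6SJL-G93A-SOD1H at 110 days and B6SJL-G93A-SOD1 at 75 days. WT-SOD1 mice carried the wild-type SOD1 transgene (strain label B6SJL-WT-SOD1 transgenic mouse at 75 days, none at 110 days), and the nontransgenic mice were B6SJL, labelled normal mouse. Each RNA came from 4 spinal cords and was hybridised once, and the labels name no agent and state neither sex nor transgene promoter nor copy number. The submitters describe G93A-SOD1 mice as partly paralysed at 110 days and free of symptoms at 75 days, and describe no disease in WT-SOD1 animals. The WT-SOD1 and nontransgenic arrays of an age therefore serve as 2 disease-free arrays. No genotype and age has a second array. The SE of a G93A-SOD1 or age difference therefore reflects the spread between disease-free arrays of different genotype, which may be technical. The fit also draws the spread of each probe set towards a spread pooled over all tested probe sets.

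Glucocorticoids are adrenal steroids that cross the cell membrane and bind the glucocorticoid receptor, which chaperones hold ready in the cytoplasm. The bound receptor moves to the nucleus and binds response elements, palindromes built of the hexamer AGAACA and its complement. In the central nervous system the hormone acts on neurons, glia and vessels, and its blood level varies with the time of day and with stress. Nr3c1 encodes the receptor, and Fkbp5 a co-chaperone that lowers hormone binding and is itself induced, which makes a feedback loop. Zbtb16 (the zinc finger repressor PLZF), Sgk1 (a serine/threonine kinase that regulates ion channels and transporters), Tsc22d3 (the leucine zipper protein GILZ, an anti-inflammatory mediator) and Cdkn1a (the cyclin-dependent kinase inhibitor p21) are target genes, and Cdkn1a is also a target of p53.

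RefSeq promoter windows on build GRCm38.p6, here the 250 bases before each annotated start, were matched for 4 of the 6 genes (all but Zbtb16 and Nr3c1), 12 windows in all: Sgk1 had 6, Tsc22d3 3, Cdkn1a 2 and Fkbp5 1. They were searched on both strands for the full palindrome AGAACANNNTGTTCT, which occurs in 3 of 32851 windows (0.00913%), and for the hexamer AGAACA, which lies inside the palindrome and occurs in 16.1% of windows. The pair below are the one window among the 12 with the palindrome and, for contrast, one with the hexamer alone, with matched letters in capitals. The Sgk1 window is chr10:21993640-21993889 on the plus strand, and its palindrome begins 189 bases before the start, with a further hexamer 242 bases before it. The Tsc22d3 window is chrX:140600523-140600772 on the minus strand, and its hexamer begins 185 bases before the start.
Sgk1: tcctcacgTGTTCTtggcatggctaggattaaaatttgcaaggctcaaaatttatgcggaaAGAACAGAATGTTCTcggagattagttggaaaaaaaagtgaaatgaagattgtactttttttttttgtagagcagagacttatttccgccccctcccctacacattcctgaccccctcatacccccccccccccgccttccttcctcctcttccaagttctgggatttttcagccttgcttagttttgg
Tsc22d3: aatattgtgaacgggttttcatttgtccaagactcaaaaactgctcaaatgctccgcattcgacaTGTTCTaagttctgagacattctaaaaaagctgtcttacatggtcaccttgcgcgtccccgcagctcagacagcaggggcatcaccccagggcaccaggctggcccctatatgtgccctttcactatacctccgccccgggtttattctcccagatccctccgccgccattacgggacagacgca
Of the other windows, 2 of Sgk1 held the hexamer, and those of Fkbp5 and Cdkn1a held neither motif. These are matches of letters and not measured binding, and a window without them says only that the letters are not there.

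Markers of other tissues and cell types stood apart on some arrays. Of 12 markers of spinal cord and motor neurons on the array, 9 passed the filter. The 12 summed to 3204 in G93A-SOD1 cord at 110 days and 3953 at 75 days, against 3889 to 4631 on the disease-free arrays. At 110 days 1 of the 9 was lower by the test, as were 0.134% of all probe sets, and 3 of the 9 had a difference above 0. That 1 was Nefm, a neurofilament chain gene, which read 571 in G93A-SOD1 cord, against 986 on the WT-SOD1 and 1035 on the nontransgenic array. Over the 6 arrays Hoxa5 read between 159 and 264. Nefh, also a neurofilament chain gene, read between 863 (G93A-SOD1, 110 days) and 1556. Isl1, a motor neuron marker, read 16.7 to 22.25, under the floor on all 6 arrays. Summed intensity of 15 microglia and macrophage markers was 9445 in G93A-SOD1 cord at 110 days, where 11 of 12 tested rose (Aif1 and Lyz2 were tested through that array alone), against 2116 to 2650 on the disease-free arrays. It was 2423 in G93A-SOD1 cord at 75 days. Astrocyte markers (7 measured) summed to 12260 in G93A-SOD1 cord at 110 days and 9327 at 75 days, against 8628 to 9739 on the disease-free arrays. At 110 days 1 of the 7 rose by the test, as did 1.38% of all probe sets, and 3 of the 7 had a difference below 0. That 1 was Gfap, which read 4442 in G93A-SOD1 cord, against 2206 on the WT-SOD1 and 1583 on the nontransgenic array. Cerebellar markers (8 measured) summed to 3435 on the WT-SOD1 110-day and 3051 on the nontransgenic 75-day array, and to 1146 to 1979 on the other arrays. Pituitary markers (7 measured) summed to 11420 on the WT-SOD1 75-day array, where the growth hormone gene Gh read 8572, and to 706 to 827 on the others. Neuron markers summed to 5360 in G93A-SOD1 cord at 110 days and 5838 at 75 days, against 6318 to 7215 on the disease-free arrays, and 3 blood markers (a pair of hemoglobin genes and Alas2, of heme synthesis) to 3423 and 5078, against 3617 to 4802. The bacterial spike-in controls averaged 834 and 631 on the WT-SOD1 110-day and nontransgenic 75-day arrays and 351 to 457 on the others. The part of these differences in the results that follow was not tested. Xist, transcribed from the inactive X, was under the floor on the WT-SOD1 75-day and nontransgenic 110-day arrays and read 49.5 to 102 on the others.

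Zbtb16 and Sgk1 were lower in G93A-SOD1 cord than on either disease-free array at 110 days and higher than on either at 75 days. Fkbp5 was higher at 75 days too, while Tsc22d3 and the Cdkn1a probe set that stands for the gene differed little. On the disease-free arrays Zbtb16 and Sgk1 were over 2-fold higher at 110 than at 75 days, and in G93A-SOD1 cord Zbtb16 was lower and Sgk1 nearly equal at 110 days. Zbtb16 is read here by 92202_g_at, 1 of its 2 probe sets. Values are linear intensities as deposited, and log2 differences are taken with a floor of 31 (the 25th percentile), to which lower values were raised. A bulk level cannot tell fewer cells of a type from less RNA per cell.

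**Figure D1:**
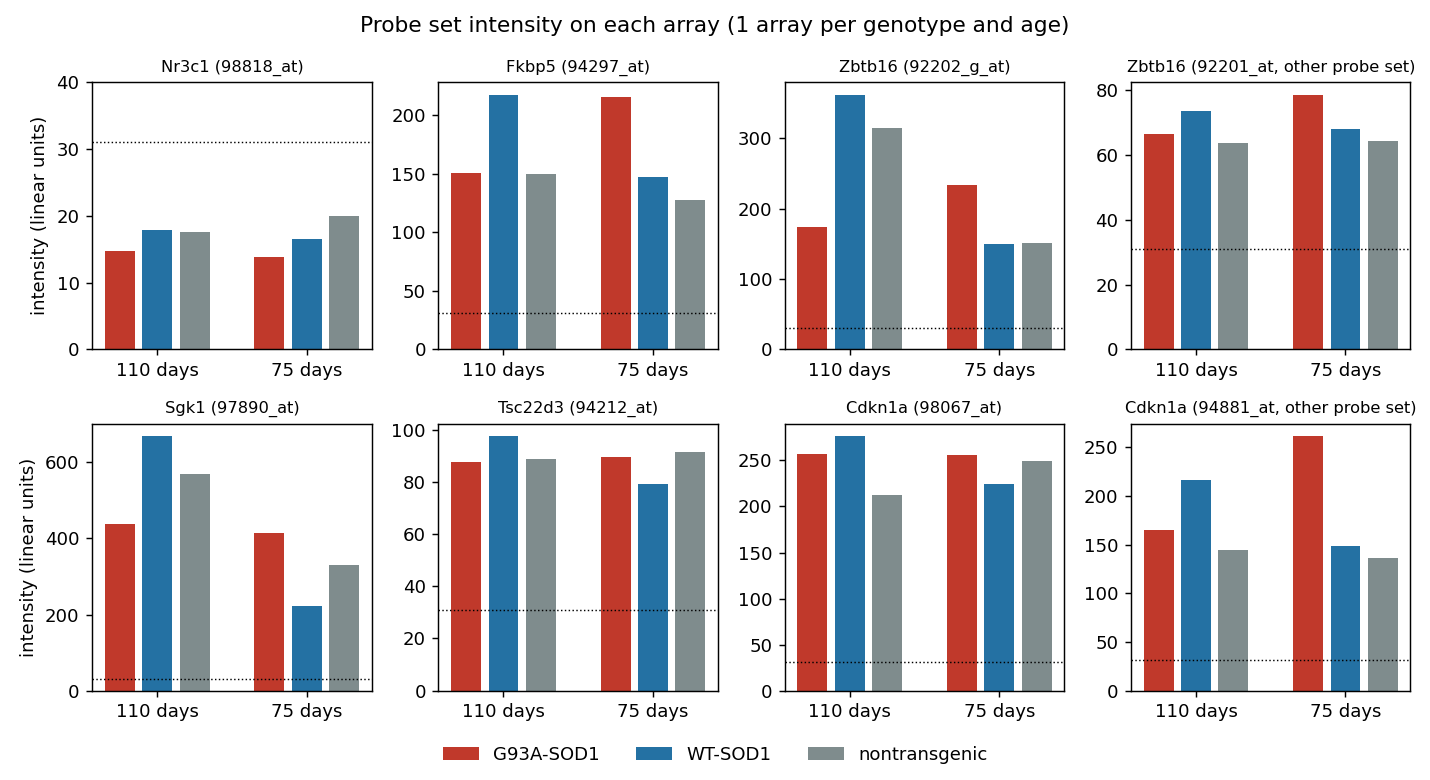
Linear intensity of the 8 probe sets of the 6 genes on each of the 6 arrays, with 110 days left and 75 days right in each panel and 1 bar per genotype; the dotted line is the floor of 31. Zbtb16 (92202_g_at) and Sgk1 bars of the WT-SOD1 and nontransgenic arrays are tallest at 110 days, and all Nr3c1 bars lie under the floor.

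The receptor gene Nr3c1 could not be followed on these arrays. Its probe set 98818_at read 14.8 in G93A-SOD1 cord at 110 days, against 17.8 on the WT-SOD1 and 17.6 on the nontransgenic array. At 75 days it read 13.9 in G93A-SOD1 cord, against 16.5 on the WT-SOD1 and 20.05 on the nontransgenic array. All 6 values lie under the floor of 31, where values have no order, so neither a level nor a difference of receptor mRNA was measured.

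Fkbp5 (94297_at), the co-chaperone gene, read 150.2 in G93A-SOD1 cord at 110 days, against 217 on the WT-SOD1 and 149 on the nontransgenic array. The G93A-SOD1 array thus equalled the nontransgenic one, and the difference from the disease-free mean at this age rests on the WT-SOD1 array. At 75 days Fkbp5 read 215 in G93A-SOD1 cord, against 147 on the WT-SOD1 and 127 on the nontransgenic array, above both. Its log2 difference, G93A-SOD1 minus disease-free, was -0.26 ± 0.23 (SE, 1 array against 2) at 110 days and 0.66 ± 0.23 at 75 days. Without the WT-SOD1 110-day array the first of these was 0.0085, and without the nontransgenic 75-day array the second was 0.55.

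Zbtb16 (92202_g_at), the gene of a transcriptional repressor, read 173 in G93A-SOD1 cord at 110 days, against 361 on the WT-SOD1 and 314 on the nontransgenic array. At 75 days it read 233 in G93A-SOD1 cord, against 150.1 on the WT-SOD1 and 151 on the nontransgenic array. The disease-free arrays of an age were close to each other, the G93A-SOD1 array was below both at 110 days and above both at 75 days, and both disease-free 110-day values exceeded every other array. G93A-SOD1 cord was 1.94-fold lower at 110 days (log2 difference -0.96 ± 0.14 SE) and 1.55-fold higher at 75 days (0.63 ± 0.14 SE). The suffix _g_at marks probe sets that can also bind related transcripts. The other probe set of the gene, 92201_at, lay between 63.7 and 78.5 on all 6 arrays and did not pass the filter; it read 66.5 in G93A-SOD1 cord at 110 days, against 73.7 and 63.7 on the WT-SOD1 and nontransgenic arrays. The difference at 110 days and the rise with age on the disease-free arrays therefore rest on 1 of 2 probe sets. The cerebellar marker sum was 3435 on the WT-SOD1 and 1979 on the nontransgenic 110-day array, and 1544 on the WT-SOD1 and 3051 on the nontransgenic 75-day array, and its part in the Zbtb16 levels was not tested. With the WT-SOD1 110-day and nontransgenic 75-day arrays left out, its log2 difference was -0.86 at 110 days and 0.63 at 75 days.

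Sgk1 (97890_at), the kinase gene, read 437 in G93A-SOD1 cord at 110 days, against 669 on the WT-SOD1 and 568.5 on the nontransgenic array. It read 414 in G93A-SOD1 cord at 75 days, against 222 on the WT-SOD1 and 331 on the nontransgenic array. The G93A-SOD1 arrays of both ages were nearly alike and lay between the disease-free arrays of 110 days above them and those of 75 days below. G93A-SOD1 cord was 1.41-fold lower at 110 days (log2 difference -0.50 ± 0.24 SE) and 1.53-fold higher at 75 days (0.61 ± 0.24 SE). The second value depends on which disease-free array is used, with 0.32 without the WT-SOD1 75-day array and 0.90 without the nontransgenic 75-day one. With the WT-SOD1 110-day and nontransgenic 75-day arrays both left out, the differences were -0.38 at 110 days and 0.90 at 75 days. The 75-day reference is then the WT-SOD1 array alone, whose pituitary marker sum was 11420.

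Tsc22d3 (94212_at), the gene of GILZ, read 87.8 in G93A-SOD1 cord at 110 days, against 97.5 on the WT-SOD1 and 88.9 on the nontransgenic array. It read 89.65 in G93A-SOD1 cord at 75 days, against 79.4 on the WT-SOD1 and 91.5 on the nontransgenic array. The groups overlapped at 75 days and were close at 110 days, with log2 differences of -0.08 ± 0.15 SE at 110 days and 0.07 ± 0.15 SE at 75 days. All 6 values are near the median intensity of all probe sets, 79.7.

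Cdkn1a, the gene of the cell cycle inhibitor p21, had a pair of probe sets that disagreed. The brighter one, 98067_at, read 257 in G93A-SOD1 cord at 110 days, against 276 on the WT-SOD1 and 212 on the nontransgenic array, and 256 in G93A-SOD1 cord at 75 days, against 225 and 249.9. Its log2 differences were 0.09 ± 0.19 SE at 110 days and 0.11 ± 0.19 SE at 75 days, within the spread between disease-free arrays. The other one, 94881_at, read 164.5 in G93A-SOD1 cord at 110 days, against 216 on the WT-SOD1 and 145 on the nontransgenic array. At 75 days it read 261 in G93A-SOD1 cord, against 149 on the WT-SOD1 and 136 on the nontransgenic array, 1.83-fold higher than the disease-free mean (0.87 ± 0.23 SE). The difference at 110 days was -0.11 ± 0.23 SE, with the G93A-SOD1 array between the disease-free ones. Over the 6 arrays it ran closer to Fkbp5 (Pearson r = 0.95, a description over arrays of mixed genotype and age) than to the other Cdkn1a probe set (r = 0.60).

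**Figure D2:**
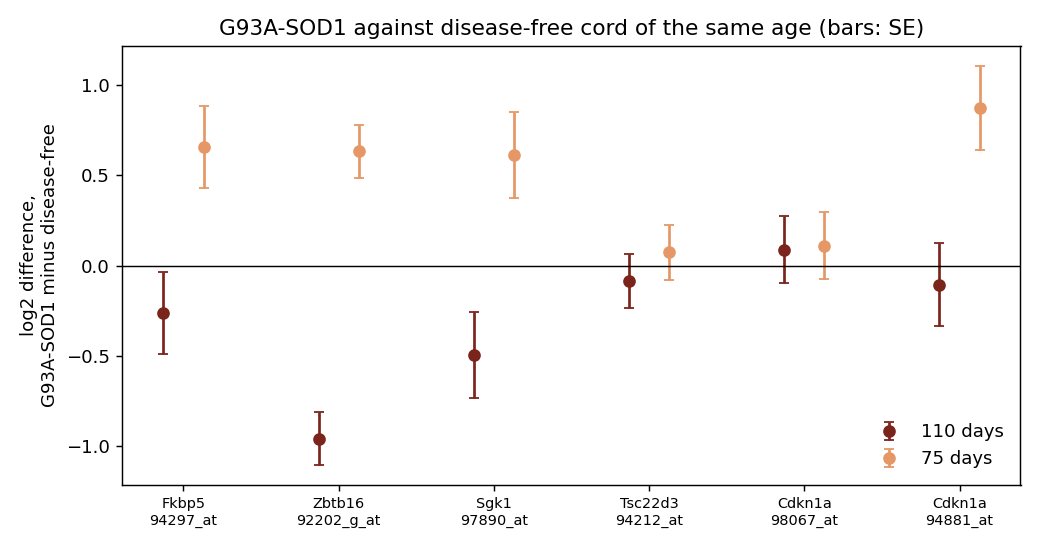
Log2 difference, G93A-SOD1 minus disease-free cord, for the 6 probe sets that passed the filter, with 110 days (dark) left of 75 days (light) and bars for the SE of the fit. Zbtb16, Sgk1 and Fkbp5 lie below 0 at 110 days and above 0 at 75 days, while Tsc22d3 and Cdkn1a (98067_at) lie within 1 SE of 0.

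Across all 6737 probe sets tested with limma and Benjamini-Hochberg adjustment, 102 (1.51%) had a G93A-SOD1 difference at 110 days. Among the 5 genes that passed the filter 1 did, Zbtb16 (adjusted p = 0.0235), and the other adjusted p-values lay between 0.567 and 0.989. At 75 days 0 of 6737 probe sets passed (0%; 9.86% had an unadjusted p under 0.05), and 0 of these 5 genes did, with 3 of them under 0.05 before adjustment. Their median log2 difference was -0.26 at 110 days, where that of all tested probe sets was -0.02, and 0.61 at 75 days, where it was -0.04. The 110-day difference minus the 75-day difference was -1.59 ± 0.20 SE for Zbtb16 (adjusted p = 0.0376), -1.11 ± 0.34 SE for Sgk1 (adjusted p = 0.563) and -0.92 ± 0.32 SE for Fkbp5 (adjusted p = 0.677). In this comparison 0.416% of all probe sets passed. The genes were proposed with these results known, so nothing is read from the counts. The call for Zbtb16 at 110 days was lost with a floor at the 40th percentile (adjusted p = 0.0573) and with no filter (0.296), at the same log2 difference.

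In size, 3 of the 5 tested genes (Zbtb16, Sgk1 and Fkbp5) were at least 1.5-fold above the disease-free mean in G93A-SOD1 cord at 75 days, and 0.564% of all tested probe sets were. At 110 days 1 of the 5 (Zbtb16) was at least 1.5-fold below it, and 1.59% of all were. By position alone, 4 of the 5 genes (Zbtb16, Sgk1, Fkbp5 and Cdkn1a) lay above both disease-free arrays of the age in G93A-SOD1 cord at 75 days, and 32.2% of all tested probe sets did. At 110 days 3 of the 5 (Zbtb16, Sgk1 and Tsc22d3) lay below both, and 35.3% of all did. Above both at 75 days and below both at 110 days were 2 of the 5, Zbtb16 and Sgk1, and 7.36% of all. None of the 5 tested genes lay above all 4 disease-free arrays in G93A-SOD1 cord (23.8% of all did at 75 days and 16.9% at 110 days) or below all 4 (34.7% at 75 days and 27% at 110 days). These counts use the probe set that represents each gene. The other Cdkn1a probe set, 94881_at, was above all 4 at 75 days (261 in G93A-SOD1 cord, against at most 216) and 1.83-fold above the disease-free mean.

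Age was also compared within each genotype. Zbtb16 at 110 days was 0.744 times its level at 75 days in G93A-SOD1 cord, against 2.41 times in WT-SOD1 and 2.09 times in nontransgenic cord. Sgk1 at 110 days was 1.06 times its 75-day level in G93A-SOD1 cord, against 3.01 times in WT-SOD1 and 1.72 times in nontransgenic cord. Fkbp5 at 110 days was 0.697 times its 75-day level in G93A-SOD1 cord, against 1.48 times in WT-SOD1 and 1.17 times in nontransgenic cord. On the probe sets that represent these 3 genes, both 110-day disease-free arrays exceeded both 75-day ones, as for 15.2% of all tested probe sets. On each of these 3 probe sets both disease-free genotypes were higher at 110 days and the G93A-SOD1 ratio was the lowest. The share of all probe sets with this order is not given, so nothing is read from it. Cdkn1a (94881_at) had the same order, with 0.630 times in G93A-SOD1, 1.45 in WT-SOD1 and 1.06 in nontransgenic cord. Zbtb16 (92201_at), Tsc22d3 and Cdkn1a (98067_at) did not, with nontransgenic ratios of 0.990, 0.971 and 0.849. Each ratio compares a single array with a single array and has no error of its own.

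**Figure D3:**
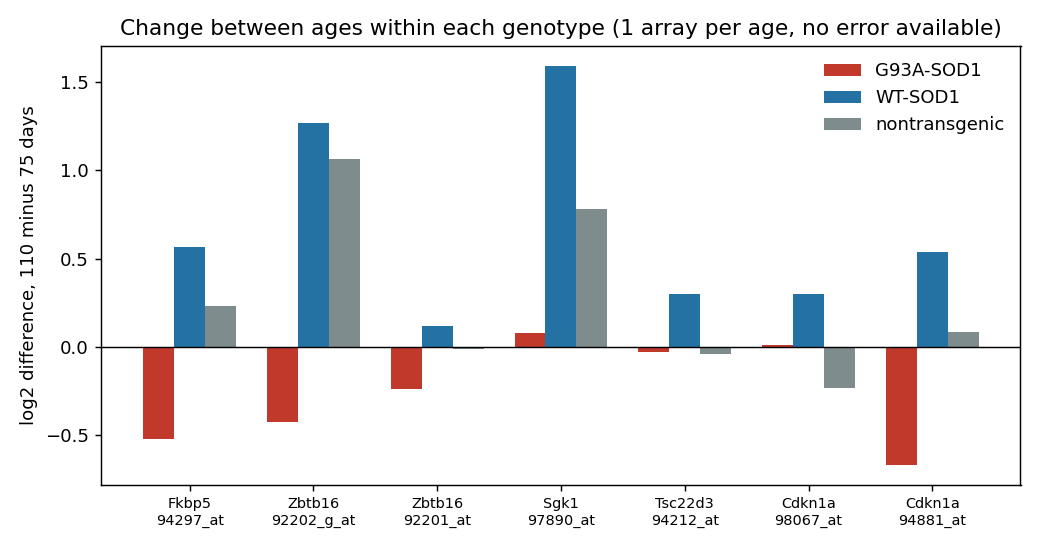
Log2 difference between 110 and 75 days within each genotype for 7 probe sets, 1 bar per genotype, each from 1 array per age. For Zbtb16 (92202_g_at) and Sgk1 the WT-SOD1 and nontransgenic bars reach 0.78 to 1.59, while the G93A-SOD1 bars are -0.43 and 0.08.

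On the 4 disease-free arrays Sgk1 was 2.27-fold and Zbtb16 2.24-fold higher at 110 than at 75 days (log2 differences 1.19 ± 0.20 SE and 1.16 ± 0.12 SE, 2 arrays against 2). Of all tested probe sets, 20 (0.297%) were at least 1.5-fold higher at 110 days by these means. The limma test with adjustment over all probe sets was passed by neither (adjusted p = 0.637 for Sgk1 and 0.0703 for Zbtb16), and by 0.0148% of all. Without the nontransgenic 75-day array the log2 differences were 1.47 for Sgk1 and 1.17 for Zbtb16. Without the WT-SOD1 75-day array they were 0.90 and 1.16. Either fit leaves 1 disease-free array at 75 days. The spread of each probe set then comes from the 110-day pair (1 residual degree of freedom) and is drawn towards the pooled spread. With the WT-SOD1 110-day and nontransgenic 75-day arrays left out, the log2 differences were 1.36 for Sgk1, 1.07 for Zbtb16 and 0.02 for Fkbp5. With all 4 arrays Fkbp5, Tsc22d3 and Cdkn1a had log2 differences of 0.40, 0.13 and 0.03 between the ages, with adjusted p = 0.998 each.

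WT-SOD1 and nontransgenic cord were compared over both ages. The log2 difference, WT-SOD1 minus nontransgenic with age as a term, was 0.37 ± 0.19 SE for Fkbp5, 0.11 for Cdkn1a, 0.10 for Zbtb16, -0.04 for Tsc22d3 and -0.17 for Sgk1. The SE was 0.19 for each of these genes, so it is a spread pooled over probe sets and not that of a single gene. Within an age, on 1 array each, Sgk1 differed by 0.23 at 110 days and -0.58 at 75 days, Fkbp5 by 0.54 and 0.21, and Cdkn1a (94881_at) by 0.58 and 0.13. The limma test was passed by 0 of these 5 genes (0 with an unadjusted p under 0.05) and by 0.104% of all probe sets (1.17% with an unadjusted p under 0.05). Over all 6 arrays the Zbtb16 order was WT-SOD1 110, nontransgenic 110, G93A-SOD1 75 and G93A-SOD1 110 days, followed by both disease-free 75-day arrays, which were within 1 unit of each other. The Sgk1 order was WT-SOD1 110, nontransgenic 110, G93A-SOD1 110 and G93A-SOD1 75 days, then nontransgenic 75 and WT-SOD1 75 days.

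A wider list of 44 glucocorticoid target genes was examined, of which 39 were on the array and 30 passed the filter. At 110 days 2 were higher and 1 lower in G93A-SOD1 cord by the limma test, where 1.38% of all probe sets were higher and 0.134% lower. Cebpd, a C/EBP transcription factor gene, rose to 582.5 in G93A-SOD1 cord, against 134 on the WT-SOD1 and 106 on the nontransgenic array (log2 difference 2.29 ± 0.21 SE, adjusted p = 0.00343). Cebpb, its relative, rose to 92.3 in G93A-SOD1 cord, against 51.8 and 49.6 (0.86 ± 0.13 SE, adjusted p = 0.0262). It passed the filter only through that G93A-SOD1 array, so its direction is fixed by the filter. The gene that fell was Zbtb16. The metallothionein genes Mt1 and Mt2, which bind zinc and copper, had log2 differences of 0.77 and 0.76 (adjusted p = 0.468 and 0.452). Their disease-free arrays were far apart, with Mt1 at 3249 on the WT-SOD1 and 1789 on the nontransgenic 110-day array, and 4116 in G93A-SOD1 cord. The list median was 0.05 at 110 days, where that of all probe sets was -0.02. Of the 6 listed genes that differed most, Cebpd, Cebpb, Mt1 and Mt2 lay above 0 and Zbtb16 and Sgk1 below.

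At 75 days 25 of the 30 listed target genes had a difference above 0, with a median of 0.20 where that of all probe sets was -0.04. Leaving out the 5 genes described above, 20 of 25 were above 0 with a median of 0.18, and 19 of 25 (76%) lay above both disease-free arrays, a position that 32.2% of all probe sets held. The list was drawn up with earlier results of these data known, and every difference uses the same G93A-SOD1 array. Nothing is read from these counts. The limma test was passed by 0 of the 30, as by 0% of all. An unadjusted p under 0.05 was held by 9 of the 30, among them Zbtb16, Sgk1 and Fkbp5, and by 9.86% of all. Of the 9 only Dusp1 lay below 0 (log2 difference -0.32). Of all probe sets 42.5% had a difference above 0. Cyp7b1, Klf9 and Hif3a, chosen after their values were seen, are also among the 9. Cyp7b1, a steroid hydroxylase gene whose probe set can also bind related transcripts, passed the filter only through the G93A-SOD1 75-day array, so its place in these counts is fixed by the filter. It read 90.3 in G93A-SOD1 cord, against 57.2 on the WT-SOD1 and 59.7 on the nontransgenic array. Klf9, a Krüppel-like factor gene induced by glucocorticoids, read 445 in G93A-SOD1 cord, against 333 and 321. Hif3a, a hypoxia-inducible factor gene, read 214 in G93A-SOD1 cord, against 153 and 166. At 110 days their log2 differences were 0.24, -0.08 and 0.10. Per1 and Dusp1, also chosen after their values were seen, a clock gene and a phosphatase gene that glucocorticoids induce quickly, differed by 0.10 and -0.32 at 75 days (adjusted p = 0.833 and 0.504).

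**Figure D4:**
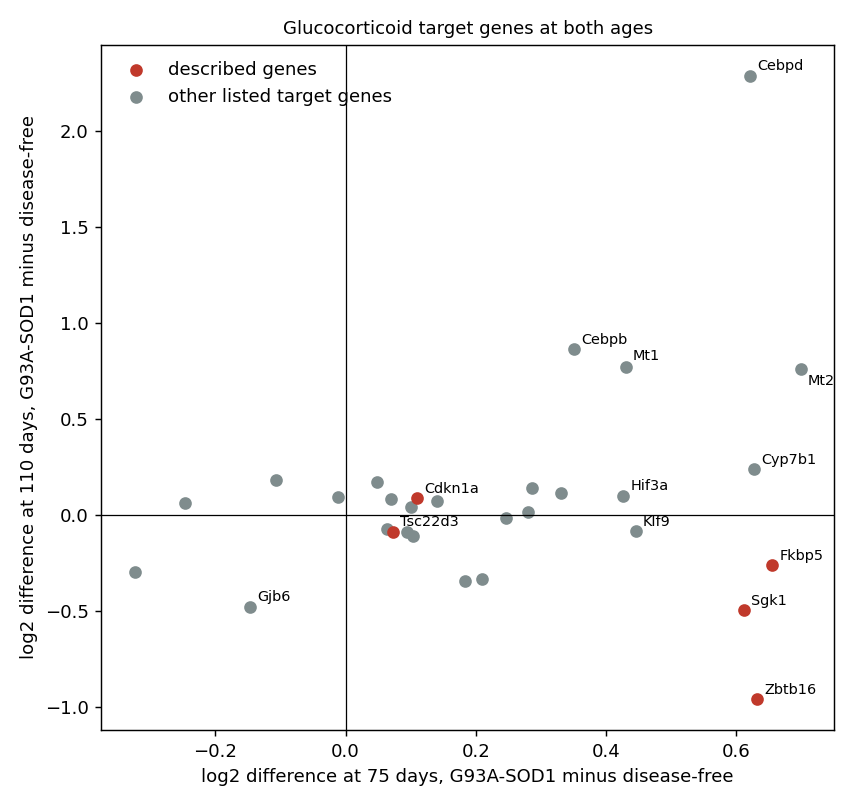
Log2 difference, G93A-SOD1 minus disease-free, at 75 days (x axis) and at 110 days (y axis) for the 30 glucocorticoid target genes that passed the filter, 1 point per gene. Most points lie right of 0, Cebpd is highest at 2.29 on the y axis, and Fkbp5, Sgk1 and Zbtb16 lie at the lower right.

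Genes of the receptor's chaperone complex and of hormone metabolism were examined next. Of 19 listed genes 14 were on the array and 12 passed the filter. At 110 days 0 of 12 passed the limma test, where 1.51% of all probe sets did. In G93A-SOD1 cord 11 of 12 had a difference below 0, as had 55.1% of all probe sets. The median was -0.38, where that of all was -0.02. Without Fkbp5, which is also in this list, 10 of 11 were below 0. This list was also drawn up with earlier results known, so nothing is read from these counts. At 75 days 8 of 12 were below 0, as were 57.5% of all probe sets, with a median of -0.07 where that of all was -0.04. Hsd11b1, the enzyme gene that regenerates active glucocorticoid, read 78.1 in G93A-SOD1 cord at 110 days, against 128 on the WT-SOD1 and 102 on the nontransgenic array (-0.55 ± 0.17 SE, adjusted p = 0.293). Hspa8, the constitutive Hsp70, read 668 in G93A-SOD1 cord, against 1025 and 879 (-0.51 ± 0.15 SE, adjusted p = 0.242). Hsp90aa1, the Hsp90 that holds the receptor ready for hormone, read 2495 in G93A-SOD1 cord, against 3298 and 3420 (-0.43 ± 0.15 SE, adjusted p = 0.338). Fkbp4, the co-chaperone that competes with the Fkbp5 protein for Hsp90, read 593 in G93A-SOD1 cord, against 788 and 775 (-0.40 ± 0.13 SE, adjusted p = 0.311). On the disease-free arrays 10 of these 12 genes were higher at 110 than at 75 days. Their median was 0.21, where that of all probe sets was -0.004, and none passed the test (0.0148% of all did).

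The genes whose pattern over the 6 arrays was most like that of each member were found by Pearson r of log2 values, among genes that varied at least as much as the member. For Zbtb16 these were Hspa1b (r = 0.97), Sgk1 (0.89) and Calb1 (0.47), out of 61 genes. For Sgk1 the first was also Hspa1b (r = 0.82 of 54 genes), followed by Calb1 (0.44) and En2 (0.42). Hspa1b, an inducible Hsp70 gene, read 56.4 in G93A-SOD1 cord at 110 days, against 252 on the WT-SOD1 and 282 on the nontransgenic array. At 75 days it read 137 in G93A-SOD1 cord, against 54.4 and 64.7. It was thus below both disease-free arrays at 110 days and above both at 75 days, as Zbtb16 and Sgk1 were. For Fkbp5 the nearest were Coasy (0.69), Zbtb16 (0.67) and Dao (0.64) of 274 genes. For Tsc22d3 they were Acyp1, Shh and Noct (0.95, 0.94 and 0.94 of 3835 genes), and for Cdkn1a Actg2, Sf3b1 and Slc6a18 (0.99, 0.99 and 0.96 of 2340). An r over 0.9 was reached by 1 of the 61 genes for Zbtb16, 5 of the 3835 for Tsc22d3 and 24 of the 2340 for Cdkn1a, and these are descriptions.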

How the data were processed

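The deposited table holds 1 linear intensity per Affymetrix probe set and array, made by the authors; their way of summarising probes and scaling arrays is not stated in the labels. Per the labels' protocols, Trizol RNA was poly(A)-selected and copied with a T7-coupled primer into biotin-labelled cRNA. Of 12488 entries, 66 control probe sets were left out. Array medians lay within 0.06 on the log2 scale, so intensities were used as deposited. The 25th percentile (31) served as a floor for lower values before log2. A probe set was tested when 1 array exceeded the pooled median of 79.7.

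The platform annotation gave 1 symbol to 10833 of 12422 probe sets, several to 396 and none to 1193; 10817 of those with 1 matched the reference gene table by Entrez identifier, and 0 symbols changed. Linear models were fitted with lmFit and eBayes of limma 3.58.1 (R 4.3.3), with Benjamini-Hochberg adjustment over 6737 probe sets at 0.05. The fit had 4 means (G93A-SOD1 and disease-free at each age) and 2 residual degrees of freedom, so a lone G93A-SOD1 array is taken to vary as the disease-free ones do. WT-SOD1 against nontransgenic used the 4 disease-free arrays and an age term (1 residual degree of freedom). The fits were checked on simulated arrays. The number of arrays limits the precision.

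The 6 genes and all lists were chosen with earlier results of these data known. Named genes are the 6, the list genes past the test at 110 days (otherwise the 3 with the largest difference), the 6 target genes with the largest difference at 110 days, the receptor's partners, and the 1 or 2 brightest of a marker list; Nr3c2 and Hsp90ab1 were not analysed here. Hoxa5, Isl1, Per1, Dusp1, Aif1, Lyz2, Alas2 and the genes so marked in the text were chosen after their values were seen. Lists of p53 targets and clock genes were examined too. Alternatives were other floors, scalings and filters, each disease-free array left out, a term for the arrays with high spike-in levels, and the other Cdkn1a probe set.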

Additional observations from a re-analysis of the deposited data

Results flagged for a closer look

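The G93A-SOD1 difference had opposite signs at the 2 ages for Zbtb16 and Sgk1, with the G93A-SOD1 array outside both disease-free arrays each time. For Zbtb16 it was -0.96 at 110 days and 0.63 at 75 days, a change of -1.59 on the log2 scale. This passed the limma test of the change itself (adjusted p = 0.0376, and 0.261 with no filter), as did 0.416% of all probe sets. For Sgk1 the difference was -0.50 at 110 days and 0.61 at 75 days, a change of -1.11 that did not pass that test (adjusted p = 0.563). Both genes were proposed with these differences known, so the passed test gives no further support. The other Zbtb16 probe set, 92201_at, did not pass the filter. It read 66.5 in G93A-SOD1 cord at 110 days, against 73.7 on the WT-SOD1 and 63.7 on the nontransgenic array.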

How the results depend on the processing

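The call of Zbtb16 at 110 days, the 1 call among the 6 genes, became 0 calls with no filter and with the 40th percentile as floor. The 1 call for the change with age, again Zbtb16, became 0 under the same alternatives and also with arrays scaled to 1 median (adjusted p = 0.0731), and 2 with the spike-in term, which also gave 2 for age in disease-free cord in place of 0 (Zbtb16 and Sgk1). The cause was not tested. The probe set 92201_at could not be tried in place of 92202_g_at because it did not pass the filter. With 1 disease-free array left out, the number of the 6 genes called was 1 to 1 at 110 days, 0 to 1 at 75 days, 1 to 2 for age (Zbtb16, and Sgk1 without the nontransgenic 75-day array) and 1 to 2 for the change with age. At 75 days the call was Zbtb16 without either 110-day disease-free array (adjusted p = 0.0439). For the change, Sgk1 was added without the nontransgenic 75-day array (-1.39) and Fkbp5 without the nontransgenic 110-day array (-1.19). Each such fit leaves 1 disease-free array at an age. The spread of each probe set then comes from the pair of the other age and is drawn towards the pooled spread. Zbtb16 log2 differences stayed between -1.06 and -0.86 at 110 days and between 0.63 and 0.69 at 75 days over 12 alternatives on the same probe set, and those of Sgk1 between -0.61 and -0.29 and between 0.32 and 0.90. Over all probe sets, the calls were 102 at 110 days (42 with no filter, 591 without the WT-SOD1 110-day array), 0 at 75 days (116 without the nontransgenic 110-day array), 1 for age (0 with no filter, 17 without the nontransgenic 75-day array), 28 for the change (2 with arrays scaled to 1 median, 135 without the nontransgenic 110-day array) and 7 for WT-SOD1 (0 with a floor at the 40th percentile). Leaving out the WT-SOD1 110-day and nontransgenic 75-day arrays together was chosen after seeing the data and gives values with no test. It leaves the WT-SOD1 array, which has high pituitary markers, as the only disease-free array at 75 days. WT-SOD1 calls among the 6 genes were 0 under every alternative run. No paired analysis was possible because each genotype and age has 1 array and the labels give no replicate numbers. Values at or under the floor (24.6% to 25.9% of each array), among them all of Nr3c1, cannot show a difference.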

Other observations

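Clock genes were examined because glucocorticoid levels follow the time of day. Of 16 listed genes 13 were on the array and 9 passed the filter, and 0 passed the limma test at either age (1.51% of all probe sets did at 110 days and 0% at 75 days). Nr1d2, the gene of the nuclear receptor REV-ERB beta, read 181 in G93A-SOD1 cord at 110 days, against 277 on the WT-SOD1 and 275 on the nontransgenic array (log2 difference -0.61 ± 0.13 SE, adjusted p = 0.0971). At 75 days it read 166 in G93A-SOD1 cord, against 255 and 262 (-0.64, adjusted p = 0.422), so it was lower by a like amount at both ages. Bhlhe40, a clock repressor gene, had log2 differences of 0.44 at 110 and -0.12 at 75 days. Dbp, a clock output gene, read 103 in G93A-SOD1 cord at 110 days, against 82.2 and 93.2, and 66.4 at 75 days, against 93.1 and 118. The labels do not state the hour of tissue collection.

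A list of p53 target genes was examined because Cdkn1a belongs to it as well. With Cdkn1a, 9 were on the array, 8 passed the filter and 0 passed the limma test at either age. Of all probe sets 1.51% passed at 110 days and 0% at 75 days. Gadd45a, a growth arrest gene, read 149 in G93A-SOD1 cord at 110 days, against 95.1 on the WT-SOD1 and 142 on the nontransgenic array. Ccng1, the gene of cyclin G1, passed the filter only through the G93A-SOD1 110-day array. It read 81.6 in G93A-SOD1 cord, against 73.4 and 60.5. The list medians, Cdkn1a included, were 0.06 at 110 days and -0.05 at 75 days, where those of all probe sets were -0.02 and -0.04.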
